A study of Mus musculus with 27 samples.

Results

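Genes for the subunits of the oxidative phosphorylation complexes were followed in lung cells of tumour-bearing and tumour-free mice. Members were the rows of the deposited expression table whose gene symbol begins with Nduf, Uqcr, Cox4 to Cox8 or Atp5, together with Sdha, Sdhb, Sdhc, Sdhd and Cyc1. The rule took 84 of 16024 rows. By symbol, 41 belong to complex I, 4 to complex II, 9 to complex III, 15 to complex IV and 15 to complex V. Of these, 75 were counted as structural subunits. By their symbols, Ndufa4, now placed in complex IV, and its relative Ndufa4l2 were counted as subunits of complex I. The other 9 are 6 complex I assembly factors (Ndufaf1 to Ndufaf6), Cox7a2l, Atp5s and Atp5sl. All are nuclear genes; mitochondrially encoded subunits carry other symbols and are not among the members.

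The mice were C57BL/6, and the tumour-bearing ones had received HKP1 cells, a mouse lung cancer line, through the tail vein. Their lungs were taken between days 20 and 25. Lungs of mice without tumours are called WT here, as in the labels. Of 27 libraries, the tumour groups held 3 macrophage (CD11c+CD11b+), 2 monocyte (CD11b+Ly6C+), 3 neutrophil (CD11b+Ly6G+), 3 epithelial (Epcam+CD11b-CD11c-) and 3 total lung cell libraries. The WT groups held 2 macrophage (CD11c+CD11b-), 2 monocyte, 3 neutrophil, 3 epithelial and 3 total lung cell libraries, sorted by the same markers apart from the macrophages. The gate of the macrophages therefore differed between tumour and WT lungs, and gate and tumour cannot be told apart in that comparison. The epithelial gate and the total lung cells can hold the injected cancer cells as well as host cells. The labels do not say which libraries came from separate animals.

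Oxidative phosphorylation moves electrons from NADH through complex I, and from succinate through complex II, to complex III and, by way of cytochrome c, to oxygen at complex IV. Complexes I, III and IV pump protons across the inner mitochondrial membrane, and complex V, the ATP synthase, uses the returning protons to make ATP. Neutrophils are known for few mitochondria and for making most of their ATP by glycolysis, whereas alveolar macrophages and alveolar epithelial cells are rich in mitochondria.

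Values are FPKM, fragment numbers scaled by transcript length and library size, and differences are on the log2(FPKM + 1) scale, which understates the change of low genes. Each difference was tested with limma across every gene of the table with 1 FPKM or more in 2 or more of the compared libraries, and a gene is called higher or lower at a Benjamini-Hochberg adjusted p under 0.05. Of the 84 members, 79 passed that filter in all 5 tumour against WT comparisons. The table holds no read counts, so no counting error can be given. A stepwise reading of low values gave relative depths between 0.831 and 1.58 times that of the first tumour macrophage library, leaving out 2 tumour total lung libraries that were unresolved. Replicates of a group correlated at 0.974 to 0.997 over the members. Marker lists were checked against the labels. Summed neutrophil markers were 25003 to 30573 FPKM in tumour neutrophils and 28403 to 30753 FPKM in WT neutrophils, and no other preparation exceeded 9178 FPKM. S100a9 gave 13139 to 17220 FPKM of the tumour sums but is listed at 0 in the WT neutrophils, so the similar sums rest on different genes. S100a8 read 9547 to 11009 FPKM in tumour and 21820 to 24368 FPKM in WT neutrophils. Macrophage markers summed to 5295 to 7468 FPKM in tumour macrophages and 1370.0 to 1488 FPKM in WT macrophages, where epithelial markers also summed to 1496 to 1659 FPKM. Epithelial cells carried 3863 to 5075 FPKM of epithelial markers in tumour and 3739 to 13454 FPKM in WT libraries, although the surfactant genes Sftpb and Sftpc are listed at 0 in all 6, and Sftpc also in the 3 WT total lung libraries. In tumour monocyte libraries monocyte markers summed to 262 to 377 FPKM and macrophage markers to 1442 to 2325 FPKM. In WT monocyte libraries the sums were 359 to 522 FPKM for monocyte and 820 to 877 FPKM for macrophage markers. Epithelial markers summed to 645 to 1981 FPKM and endothelial markers to 638 to 989 FPKM there. Most of the epithelial sums came from Sftpc (1781 and 229 FPKM) and Scgb1a1 (44.8 and 391 FPKM), while Epcam read 1.20 and 0.195 FPKM. The lists differ in length, so their sums do not measure the share of a cell type. In 1 WT monocyte library neutrophil markers summed to 2983 FPKM.

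The members were lowest in WT neutrophils. The median level of the 84 members, on the log2(FPKM + 1) scale, was 5.13 to 5.30 in tumour neutrophil libraries and 4.46 to 4.67 in WT neutrophil libraries. In the other 8 groups it was 5.79 to 6.65. These 3 ranges did not overlap, as the plot of library medians by complex shows. Because FPKM are relative to all fragments of a library, fewer mitochondria-rich cells in a sample and less of these mRNAs per cell cannot be told apart in any of these preparations. As a share of all FPKM, the members made up 1.30% to 1.43% in tumour neutrophils and 0.805% to 0.853% in WT neutrophils. The members were also more uneven in WT neutrophils. The interquartile range of the structural subunits was 1.64 to 1.78 log2 units in tumour neutrophils, 2.24 to 2.40 in WT neutrophils and 1.37 to 1.58 in the other groups.

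**Figure D1:**
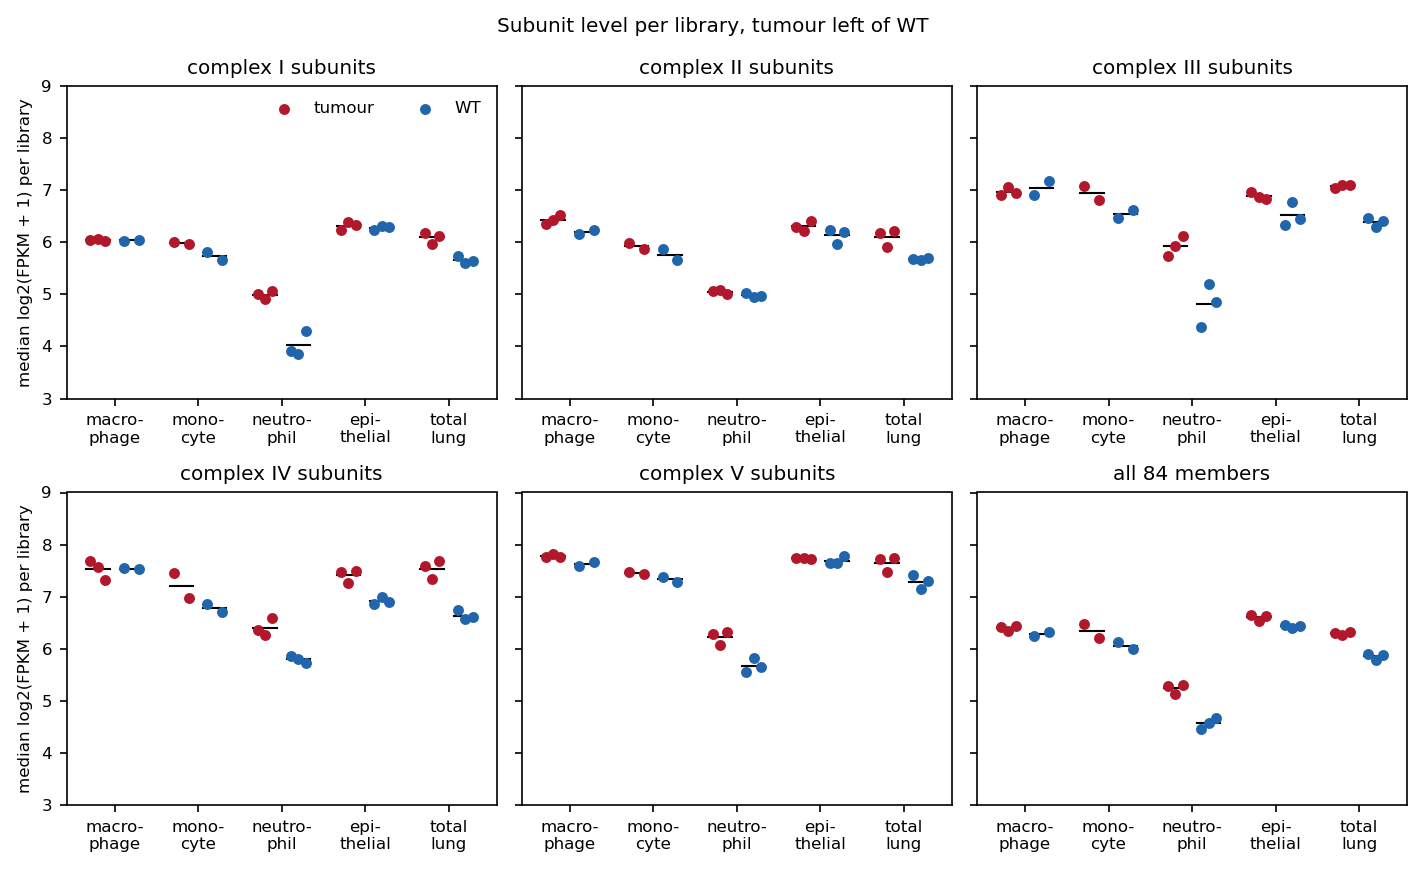
Median log2(FPKM + 1) over the structural subunits of complexes I to V and over all 84 members, by library, for the 5 preparations. Points are libraries, tumour left of WT, and bars are group means. For all members, tumour neutrophils lie at 5.13 to 5.30 and WT neutrophils at 4.46 to 4.67, below the other groups.

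Against WT macrophages, 0 of 84 members were higher in WT neutrophils and 77 were lower. Over all 12642 genes tested, 17.9% were higher and 50.0% lower. Against WT monocytes 0 members were higher and 76 lower, where 12.3% of all genes were higher and 57.1% lower. Against WT epithelial cells 0 were higher and 80 lower, where 17.3% of all genes were higher and 65.0% lower. The 3 contrasts share the WT neutrophil libraries and all come from 1 fit of the 10 groups. The median log2 difference of the members was -1.65, -1.31 and -1.80 against macrophages, monocytes and epithelial cells, beside -0.45, -0.68 and -0.99 for all genes tested. Scaling every library to its upper quartile moved the all-gene medians to 0.03, -0.06 and -0.25. The members then split into 4 higher and 61 lower against macrophages, 10 higher and 46 lower against monocytes, and 8 higher and 57 lower against epithelial cells, with medians of -0.88, -0.38 and -0.91. The all-gene shares given before belong to the values as deposited and are not the background of these counts. Under quantile normalization the members' medians were -1.38, -1.02 and -1.46, beside -0.01, -0.05 and -0.06 for all genes.

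The largest differences were those of tissue forms of complex IV, Cox6b2 against WT macrophages (-4.93 ± 0.35, SE) and Cox6a2 against WT epithelial cells (-5.51 ± 0.49) on the log2 scale, with averages in WT neutrophils of 1.27 and 0.841 FPKM. Next came genes of complexes I and V. Ndufa5, a subunit of the peripheral arm of complex I, read 2.72, 3.58 and 4.03 FPKM in WT neutrophils, against 53 and 50.9 in WT macrophages and 31.9 and 33.5 in WT monocytes. The log2 differences were -3.59 ± 0.16 and -2.94 ± 0.16 (SE), with limma adjusted p = 3.33e-14 and 1.45e-12. Atp5g1 codes for the proton-carrying c subunit of the ATP synthase ring. It read 10.5, 8.22 and 8.67 FPKM in WT neutrophils, against 94.6 and 112 FPKM in WT macrophages (log2 difference -3.37 ± 0.14, limma adjusted p = 2.27e-14). Ndufc1 and Ndufc2, small membrane-arm subunits of complex I, were lower than in WT epithelial cells by log2 differences of -3.36 ± 0.22 and -3.88 ± 0.13. Ndufa9 and Atp5o were lower than in WT monocytes by -2.69 ± 0.14 and -2.56 ± 0.13. Not every subunit was low. Cox8a, a small core-bound subunit of cytochrome c oxidase, read 239, 252 and 224 FPKM in WT neutrophils, against 237 and 294 FPKM in WT macrophages and 216 and 208 FPKM in WT monocytes. Atp5l, the g subunit of the ATP synthase, read 211, 219 and 219 FPKM in WT neutrophils, against 269 and 272 FPKM in WT macrophages and 247, 222 and 218 FPKM in WT epithelial cells. Cox8a and Atp5l passed in none of the 3 contrasts.

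In tumour neutrophils, 57 of 81 tested members were higher than in WT neutrophils and 3 were lower. Over the 9349 genes tested, 33.3% were higher and 25.8% lower. The members' median log2 change was 0.67, against 0.11 for all genes tested. Ndufaf4, Ndufaf5 and Atp5s were too low to be tested there. Ndufaf1, Ndufaf2 and Ndufaf6 passed the filter on low values only through the tumour libraries and are among the 81. Structural subunits accounted for 54 of the higher calls and 2 of the lower ones, out of 75. The members that fell were Sdhd, Uqcrh and Cox7a2l, 1 each from complexes II, III and IV.

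In complex I, 30 of 39 tested genes were higher in tumour neutrophils and 0 were lower (median log2 change 0.78). Ndufc1 (chr3:51404677-51408988 on GRCm38, minus strand) read 30.3, 22.7 and 32.3 FPKM in tumour libraries, against 3.61, 6.91 and 8.31 FPKM in WT libraries. The lowest tumour library was well above the highest WT library (log2 change 2.06 ± 0.25 (SE), adjusted p = 0.000221, limma). Ndufa5 read 10.8, 10.8 and 14 FPKM in tumour libraries, against 2.72, 3.58 and 4.03 FPKM in WT libraries, again without overlap (log2 change 1.53 ± 0.16 (SE), adjusted p = 9.33e-05, limma). Ndufab1, the mitochondrial acyl carrier protein that is also a complex I subunit, averaged 19 ± 3.96 FPKM in tumour libraries and 7.35 ± 3.65 FPKM in WT libraries (SD, n = 3 each; log2 change 1.36 ± 0.33). Of the core subunits of the peripheral arm, Ndufs8 and Ndufs7 rose by log2 changes of 1.12 and 1.03, and Ndufv2, Ndufs3 and Ndufv1 by 0.93, 0.90 and 0.75. Ndufs1, the largest of them and the carrier of several iron-sulfur clusters, had a log2 change of 0.27 and did not pass (limma adjusted p = 0.113). Ndufa4, a subunit named for complex I and now placed in complex IV, read 41.9, 38.2 and 46.3 FPKM in tumour libraries, against 48.2, 28.9 and 45.1 FPKM in WT libraries, and these ranges overlapped. Among assembly factors, Ndufaf2 averaged 4.39 ± 0.687 FPKM in tumour libraries and 1.02 ± 0.705 FPKM in WT libraries (SD, n = 3 each; log2 change 1.46 ± 0.23). It passed the filter on low values only through the tumour libraries, with 0.581, 1.84 and 0.654 FPKM in WT libraries. Ndufaf1, with 0.208, 0.505 and 0.943 FPKM in WT libraries, and Ndufaf6, with 0.906, 0 and 0.295 FPKM, passed it in the same way.

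**Figure D2:**
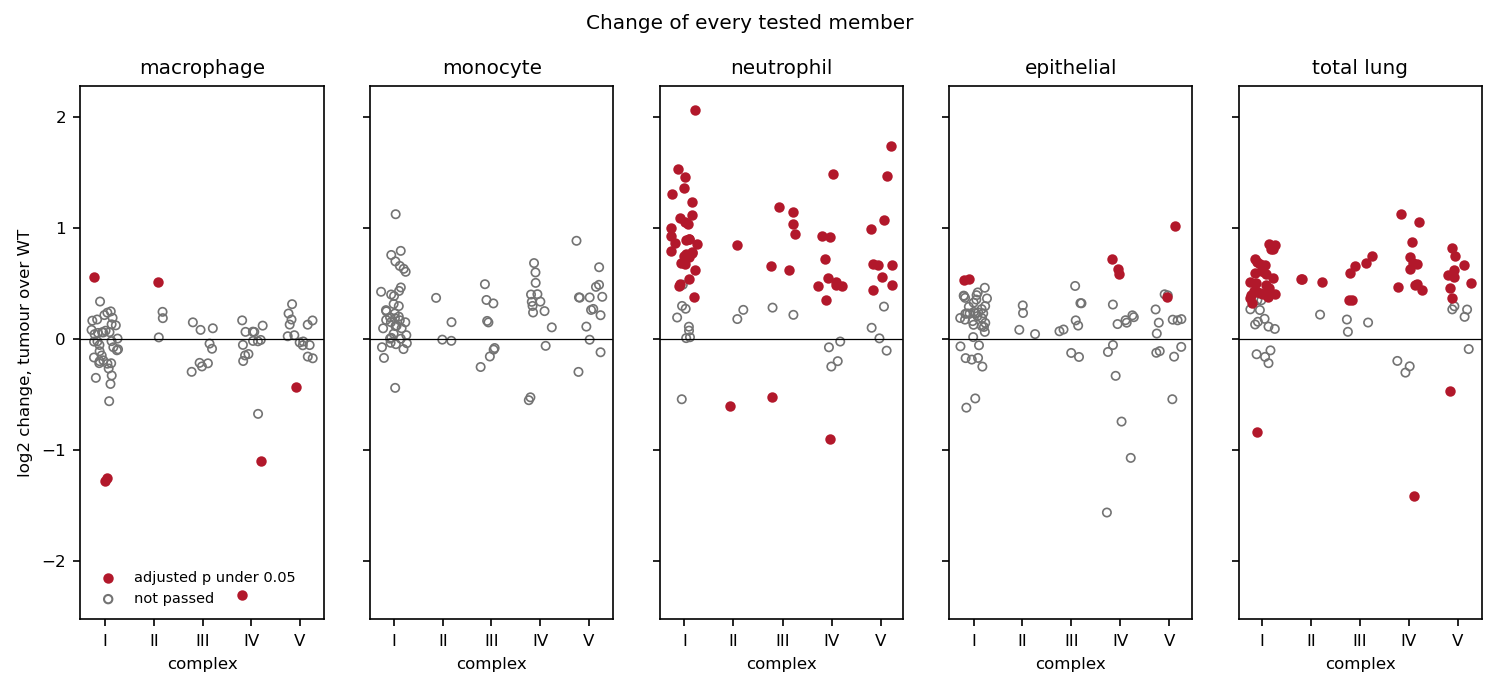
Log2 change, tumour over WT, of every tested member, by complex, in the 5 preparations. Each point is 1 gene and filled points passed at an adjusted p under 0.05 in limma. In neutrophils the complex medians are 0.78, 0.22, 0.66, 0.48 and 0.61 for complexes I to V.

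Complex II, succinate dehydrogenase, did not move as a unit. Its 4 genes gave 1 higher, 1 lower and 2 that did not pass, with a median log2 change of 0.22. Sdhc, a membrane anchor, read 26.1, 22.9 and 22.2 FPKM in tumour libraries, against 14.1, 10.9 and 13.3 FPKM in WT libraries (log2 change 0.85 ± 0.13 (SE), adjusted p = 0.000668, limma). Sdhd (chr9:50596357-50603812, minus strand), the other membrane anchor, read 31.4, 30.9 and 31.8 FPKM in tumour libraries, against 50.1, 50.6 and 44.3 FPKM in WT libraries (log2 change -0.61 ± 0.10 (SE), adjusted p = 0.00118, limma). So one anchor rose and the other fell, and in each case the tumour and WT libraries did not overlap. Sdha, the flavin-carrying catalytic subunit, read 33.1, 34.8 and 30.8 FPKM in tumour libraries, against 30.1, 24.5 and 27.3 FPKM in WT libraries and did not pass (limma adjusted p = 0.073). Sdhb, the iron-sulfur subunit, averaged 39.2 ± 1.30 FPKM in tumour libraries and 34.4 ± 1.43 FPKM in WT libraries (SD, n = 3 each; limma adjusted p = 0.139).

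In complex III, the cytochrome bc1 complex, 6 of 9 genes were higher and 1 was lower (median log2 change 0.66). Cyc1, cytochrome c1, read 26.6, 26.3 and 26.6 FPKM in tumour libraries, against 9.24, 13.2 and 11 FPKM in WT libraries (log2 change 1.19 ± 0.13 (SE), adjusted p = 0.000149, limma). Uqcrb, which lies near the quinone site, and the core protein Uqcrc1 rose by log2 changes of 1.14 ± 0.20 and 1.04 ± 0.14. Uqcrh (chr4:116066965-116075071, minus strand) is the hinge protein that sits beside cytochrome c1. It read 89.7, 98.4 and 110.0 FPKM in tumour libraries, against 152, 145 and 131 FPKM in WT libraries and was lower in every tumour library (log2 change -0.52 ± 0.12 (SE), adjusted p = 0.00529, limma). Uqcrfs1, the Rieske iron-sulfur protein, had a log2 change of 0.28 ± 0.12 and did not pass.

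In complex IV, 10 of 15 genes were higher and 1 was lower (median log2 change 0.48). Cox7b read 30.8, 25.6 and 34.2 FPKM in tumour libraries, against 11.4, 8.28 and 10.7 FPKM in WT libraries (log2 change 1.49 ± 0.15 (SE), adjusted p = 9.38e-05, limma). Cox6a1 and Cox7a2, the widely expressed forms of subunits 6a and 7a, rose by log2 changes of 0.93 ± 0.12 and 0.92 ± 0.12. Cox4i1, the widely expressed form of subunit 4 and the most abundant complex IV gene of several groups, read 179.8, 171 and 183 FPKM in tumour libraries, against 181, 202 and 180.2 FPKM in WT libraries. Its ranges overlapped, and its log2 change of -0.07 ± 0.11 did not pass. Quantile normalization turned this to 0.30, which passed. Cox7a2l (chr17:83501918-83517330, minus strand) is a relative of subunit 7a that is not counted here as a structural subunit. It read 54.1, 53.1 and 56.8 FPKM in tumour libraries, against 87.7, 114 and 108 FPKM in WT libraries. It was lower in every tumour library (log2 change -0.90 ± 0.12 (SE), adjusted p = 0.000411, limma).

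In complex V, 10 of 14 tested genes were higher and 0 lower (median log2 change 0.61). Atp5g1 (chr11:96068852-96075670, minus strand) read 35.3, 27.2 and 36.6 FPKM in tumour libraries, against 10.5, 8.22 and 8.67 FPKM in WT libraries (log2 change 1.74 ± 0.15 (SE), adjusted p = 3.93e-05, limma). Atp5g2 and Atp5g3, whose precursors yield the same mature c subunit, rose by 0.99 ± 0.13 and 1.07 ± 0.11 on the log2 scale. The c subunit genes together with Atp5o therefore gave the 4 largest changes of the complex. Atp5o (chr16:91925214-91931687, minus strand) codes for the stalk subunit that ties the catalytic head to the stator. It read 48.8, 40.0 and 58.3 FPKM in tumour libraries, against 15.3, 16.9 and 18.5 FPKM in WT libraries (log2 change 1.47 ± 0.15 (SE), adjusted p = 9.36e-05, limma). The catalytic head subunits Atp5b and Atp5a1 had smaller changes that passed, 0.56 ± 0.12 and 0.44 ± 0.11, and Atp5c1, the central stalk subunit gamma, had a log2 change of 0.10 ± 0.10 that did not pass. Tumour neutrophils were below the other tumour preparations in Atp5o, which read 147 and 125 FPKM in tumour monocytes, 129, 136 and 111 FPKM in tumour macrophages and 167, 155 and 164 FPKM in tumour epithelial cells.

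**Figure D3:**
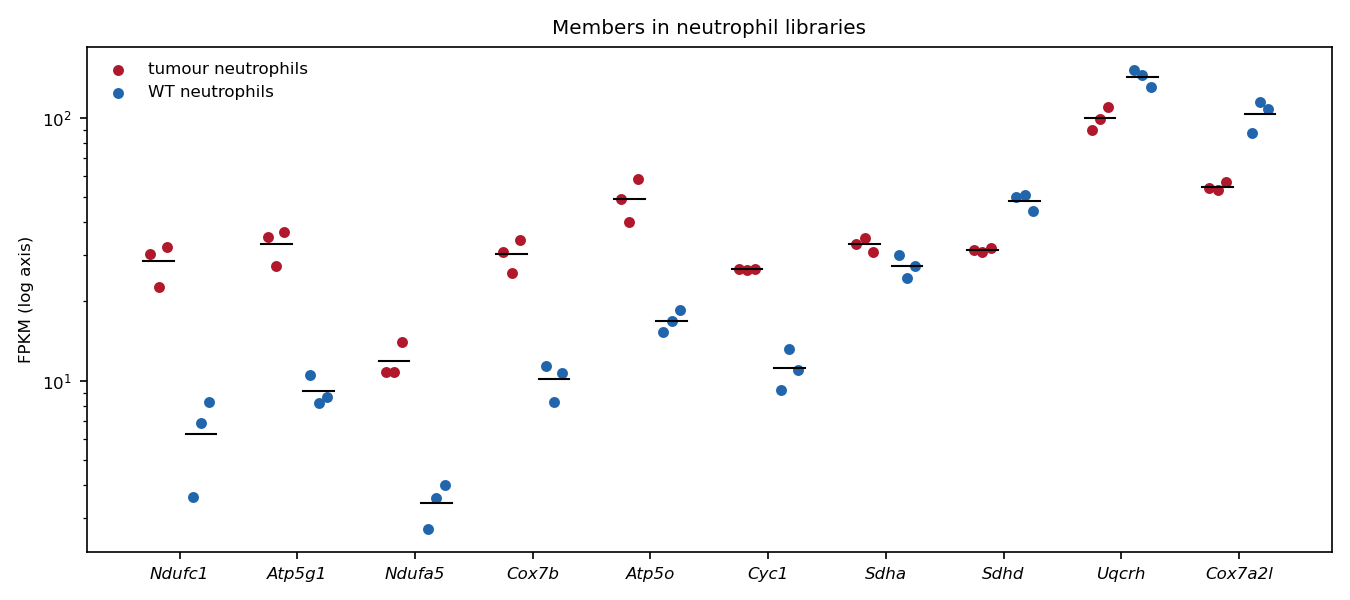
FPKM on a log axis of 10 members in neutrophil libraries, tumour left of WT. Points are libraries and bars are means. Ndufc1, Atp5g1, Ndufa5, Cox7b, Atp5o and Cyc1 are higher in every tumour library than in any WT library, and Sdhd, Uqcrh and Cox7a2l are lower.

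Upper-quartile scaling moved the all-gene median of this comparison to -0.01 and the members' median to 0.52. Leaving out each library in turn gave 53 to 59 members higher and 3 to 4 lower. Other cell markers moved in the same comparison. Of 10 endothelial markers 10 were lower in tumour neutrophils, their sums being 13.1 to 24.8 FPKM in tumour and 77.2 to 98.7 FPKM in WT libraries. All 5 B cell markers were lower, with sums of 7.90 to 57.6 FPKM in tumour and 168 to 244 FPKM in WT libraries. Of 8 tested macrophage markers 5 were higher, with sums of 271 to 393 FPKM in tumour and 217 to 262 FPKM in WT libraries, against 5295 to 7468 FPKM in tumour macrophages. Epithelial markers gave 4 higher and 4 lower of 10, with sums of 62.7 to 112 FPKM in tumour and 665 to 3095 FPKM in WT libraries. Of 9 tested neutrophil markers 6 were lower and 1 was higher, S100a9, which read 17219.9, 13139 and 17038 FPKM in tumour libraries and is listed at 0 in the WT ones. Relative depth was 1.10 to 1.23 in tumour and 0.857 to 0.962 in WT neutrophil libraries. The part of these markers and of depth in the members' changes was not tested. Member transcripts are short, with a median length of 810 bases against 2608.5 for the table. Among genes outside the set, 39.4% of those with transcripts under 1000 bases and 32.5% of longer ones were higher in tumour neutrophils. For members the shares were 72% and 67.7%. The part of transcript length was not tested.

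Promoter sequences from RefSeq (GRCm38.p6, 250 bases before to 50 after the start) were available for 65 of 84 members. Nuclear respiratory factor 1 (NRF1), ETS-family factors such as GABPA, and YY1 are known regulators of such genes. Their core letters were searched on both strands in the whole 300-base window. The NRF1 core GCGCATGC, which can overlap its own reverse complement so that both strands match, stood in 16.9% of members (11 of 65). It stood in 5.54% of other genes of the table that passed the expression filter and in 3.05% of all 27025 genes with a promoter. The ETS core CCGGAAG stood in 23.1%, 18.4% and 9.93% of these sets, and the YY1 core AAGATGGCG in 9.23%, 3.2% and 1.64%. Any of the 3 stood in 40.4% of the members higher in tumour neutrophils (19 of 47) and in 38.9% of the remaining members (7 of 18). The remaining members include Ndufaf4 and Ndufaf5, which were too low to be tested in neutrophils and whose windows hold the NRF1 core. Taken singly, the NRF1 core stood in 12.8% of the higher and 27.8% of the remaining members. The shares were 23.4% and 22.2% for the ETS core, and 12.8% and 0% for the YY1 core. The motifs were picked with the results in view, and a match is a description of letters only.

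Stretches of 60 bases are shown 5′ to 3′ for Ndufc1, Atp5g1 and Atp5o and for some of the members with a core, with core letters of either strand in capitals. Ndufa5 and Cox7b, which rose more than Atp5o in tumour neutrophils, are not printed. The first 3 rose in tumour neutrophils and end before the outermost annotated start of the gene. Their windows hold no NRF1 or ETS core, and that of Ndufc1 holds the YY1 core outside the printed bases.
Ndufc1, chr3:51408989-51409048, minus strand: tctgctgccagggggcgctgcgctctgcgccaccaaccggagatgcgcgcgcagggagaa
Atp5g1, chr11:96075671-96075730, minus strand: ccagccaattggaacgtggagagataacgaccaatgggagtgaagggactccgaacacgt
Atp5o, chr16:91931688-91931747, minus strand: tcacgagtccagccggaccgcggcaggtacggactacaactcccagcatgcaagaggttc
Cox6a1, which rose, and Ndufa6, which did not pass, were chosen after a first look found few cores among the most changed members, and show the NRF1 core.
Cox6a1, chr5:115349087-115349146, minus strand: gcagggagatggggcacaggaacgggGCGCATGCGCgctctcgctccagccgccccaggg
Ndufa6, chr15:82354341-82354400, minus strand: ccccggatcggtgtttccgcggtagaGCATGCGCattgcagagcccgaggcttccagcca
Sdhd and Uqcrh fell, and their capitals mark the ETS core on the other strand.
Sdhd, chr9:50603862-50603921, minus strand: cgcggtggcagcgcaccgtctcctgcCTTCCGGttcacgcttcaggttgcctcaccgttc
Uqcrh, chr4:116075071-116075130, minus strand: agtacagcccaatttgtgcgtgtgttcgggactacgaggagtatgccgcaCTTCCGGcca
Counted from the RefSeq start that the promoter table uses, the core began 162 bases before that of Cox6a1, 83 before that of Ndufa6, 46 before that of Sdhd and 10 before that of Uqcrh. The windows of Cox7b, Ndufa5, Ndufab1, Cox7a2l, Ndufa4 and Cox6b2 held none of the 3 cores.

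The tumour change itself was compared between preparations by an interaction term in 1 fit of all groups, and these 3 tests share the neutrophil libraries. A larger change in neutrophils means a difference above 0, and a smaller one a difference below 0. The change was larger in neutrophils than in macrophages for 54 of 84 members and smaller for 3, where 21.5% of all genes had a larger and 17.7% a smaller change. Against monocytes it was larger for 31 members and smaller for 1, where 12.5% of all genes had a larger and 8.01% a smaller change. Against epithelial cells it was larger for 43 and smaller for 2, where 19.2% of all genes had a larger and 19.5% a smaller change. The members' medians were 0.66, 0.34 and 0.50, beside 0.03, 0.05 and 0.05 for all genes. Sdhd was the member with a smaller change in all 3, at -0.85, -0.60 and -0.91 on the log2 scale. Under quantile normalization, and without WT monocyte library 4, 0 members had a smaller change than in monocytes. For Atp5o the differences were 1.34 ± 0.18, 1.09 ± 0.19 and 1.09 ± 0.17 (SE), with limma adjusted p = 5.57e-06, 0.00041 and 4.33e-05. Without the second tumour monocyte library (number 5), 19 members in place of 31 had a larger change than in monocytes.

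Total lung cells of tumour-bearing mice also carried more of these mRNAs. Of 84 members 56 were higher and 3 lower, where 22.1% of the 11747 genes tested were higher and 20.4% lower. The members' median log2 change was 0.45, against -0.01 for all genes. Leaving out each library in turn gave 44 to 58 higher and 1 to 2 lower. By complex, 27 of 41 complex I genes, 3 of 4 complex II genes, 6 of 9 complex III genes, 11 of 15 complex IV genes and 9 of 15 complex V genes were higher. Cox5a (chr9:57521274-57532426, plus strand), a matrix-side subunit of cytochrome c oxidase, read 188, 136 and 201 FPKM in tumour libraries, against 78.9, 77.1 and 79 FPKM in WT libraries (log2 change 1.13 ± 0.15 (SE), adjusted p = 0.00131, limma). Cox5b, the zinc-binding subunit next to it, read 239, 247 and 278 FPKM in tumour libraries, against 134, 114 and 117 FPKM in WT libraries (log2 change 1.06 ± 0.11 (SE), adjusted p = 0.000587, limma). No tumour library overlapped the WT range for either gene. Cox7b, Ndufc1, Ndufb2 and Atp5g1 rose by log2 changes of 0.87, 0.86, 0.85 and 0.82. In complex II, Sdhd, lower in tumour neutrophils, was higher here together with Sdhb and Sdhc, by 0.54 ± 0.12, 0.54 ± 0.09 and 0.51 ± 0.10. Atp5o read 140.3, 132 and 135 FPKM in tumour libraries, against 99.2, 93.3 and 93.5 FPKM in WT libraries (log2 change 0.51 ± 0.09 (SE), adjusted p = 0.0041, limma).

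The members that fell in total lung cells were Cox6a2, Ndufa4l2 and Atp5sl. Cox6a2 (chr7:128205435-128206387, minus strand), the heart and skeletal muscle form of subunit 6a, read 6.09, 2.86 and 2.87 FPKM in tumour libraries, against 12.3, 12.8 and 9.88 FPKM in WT libraries (log2 change -1.41 ± 0.24 (SE), adjusted p = 0.00352, limma). Its exons overlap those of Itgad, so reads of either gene may be shared between them. Ndufa4l2, a relative of Ndufa4 known to be induced by low oxygen, averaged 1.5 ± 0.795 FPKM in tumour libraries and 3.37 ± 0.885 FPKM in WT libraries (SD, n = 3 each; log2 change -0.83 ± 0.25 (SE), adjusted p = 0.0303, limma), and its exons overlap those of Shmt2. Markers of other cell types differed as well. All 10 macrophage markers were higher, with sums of 1367 to 2400 FPKM in tumour and 210 to 284 FPKM in WT libraries. All 10 endothelial markers were lower, with sums of 78.1 to 192 FPKM in tumour and 438 to 930 FPKM in WT libraries, and all 5 B cell markers were lower. Of 9 neutrophil markers 6 were higher and 1 lower, with sums of 3651 to 9178 FPKM in tumour and 1833 to 2709 FPKM in WT libraries. Transcript length moved with the calls too. Outside the set, 38.4% of genes with transcripts under 1000 bases and 20.6% of longer ones were higher, and for members the shares were 78% and 50%. Relative depth was 0.881 in the only resolved tumour library and 1.24 to 1.51 in WT total lung libraries. The part of these markers, of length and of depth in these changes was not tested. Quantile normalization left 33 members higher and 5 lower, with a median log2 change of 0.22, beside -0.02 for all genes. The all-gene shares above belong to the values as deposited.

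In macrophages few members were called. Of 83 tested, 2 were higher and 5 lower in tumour libraries, where 20.3% of 10119 genes tested were higher and 17.7% lower. The median log2 change was -0.02 for members and 0.00 for all genes. Quantile normalization gave 2 higher and 15 lower, and upper-quartile scaling 2 higher and 10 lower. The members' medians were then -0.14 and -0.09, beside -0.06 and -0.06 for all genes. The all-gene shares above belong to the values as deposited. Without the third tumour library 6 were higher and 13 lower, without the first WT library 1 was higher and 2 lower, and without the second WT library 3 were lower. Cox6b2 (chr7:4751792-4753094, minus strand), known as the testis form of subunit 6b, read 13.8, 11.4 and 12 FPKM in tumour libraries, against 62.1 and 67.6 FPKM in WT libraries (log2 change -2.30 ± 0.12 (SE), adjusted p = 2.5e-05, limma). Ndufa4 (chr6:11900292-11907497, minus strand) read 103, 103 and 89.3 FPKM in tumour libraries, against 232 and 246 FPKM in WT libraries (log2 change -1.28 ± 0.11 (SE), adjusted p = 0.000212, limma). Both genes were far apart between the groups, with each tumour library under every WT library. Ndufaf1, a complex I assembly factor, averaged 3.10 ± 1.10 FPKM in tumour libraries and 8.49 ± 0.470 FPKM in WT libraries (SD, n = 3 and 2; log2 change -1.25 ± 0.23). Atp5g3 was lower by a smaller step, at 266 ± 9.91 FPKM in tumour libraries and 358 ± 12.3 FPKM in WT libraries (log2 change -0.43 ± 0.10), and Cox4i2, the lung form of subunit 4, was lower at 0.460 ± 0.294 FPKM in tumour libraries and 2.10 ± 0.654 FPKM in WT libraries. Cox4i2 passed the filter on low values only through the WT libraries, with 0.654, 0.121 and 0.604 FPKM in tumour libraries. The genes that rose were Sdhb (log2 change 0.51 ± 0.11 (SE), adjusted p = 0.0126, limma) and Ndufa1 (log2 change 0.56 ± 0.10 (SE), adjusted p = 0.00554, limma). Summed endothelial markers were 6.53 to 12.4 FPKM in tumour and 62.8 to 68.2 FPKM in WT macrophages. Relative depth was 0.981 to 1.08 in tumour and 1.21 to 1.27 in WT macrophage libraries. The part of these markers and of depth in these differences was not tested.

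AA467197, a gene outside the rule that is a mouse relative of Ndufa4 and was looked up after the Ndufa4 values were seen, was higher in tumour macrophages, where Ndufa4 was lower. In macrophages it read 147, 226 and 115 FPKM in tumour libraries, against 4.31 and 15.7 FPKM in WT libraries (log2 change 4.06 ± 0.49 (SE), adjusted p = 0.000995, limma). In total lung cells it read 120.1, 211 and 210.2 FPKM in tumour libraries, against 10.0, 15.4 and 13.5 FPKM in WT libraries (log2 change 3.67 ± 0.24 (SE), adjusted p = 0.000105, limma). Neutrophils read 341, 579 and 435 FPKM in tumour libraries, against 120.2, 104 and 101 FPKM in WT libraries, with no change of Ndufa4 that passed there (limma adjusted p = 0.736). AA467197 thus had more FPKM than Ndufa4 in every neutrophil library, while in WT macrophages Ndufa4 read 232 and 246 FPKM and AA467197 4.31 and 15.7 FPKM. In total lung cells Ndufa4 also rose (log2 change 0.43 ± 0.10 (SE), adjusted p = 0.011, limma). In epithelial cells AA467197 read 16.2, 3.47 and 10.4 FPKM in tumour libraries, against 0, 8.81 and 0 FPKM in WT libraries and did not pass. In monocytes it read 282 and 67.3 FPKM in tumour libraries, against 0.392 and 9.34 FPKM in WT libraries and did not pass either (limma adjusted p = 0.182), and Ndufa4 read 179 and 157 FPKM in tumour libraries, against 197 and 159 FPKM in WT libraries.

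**Figure D4:**
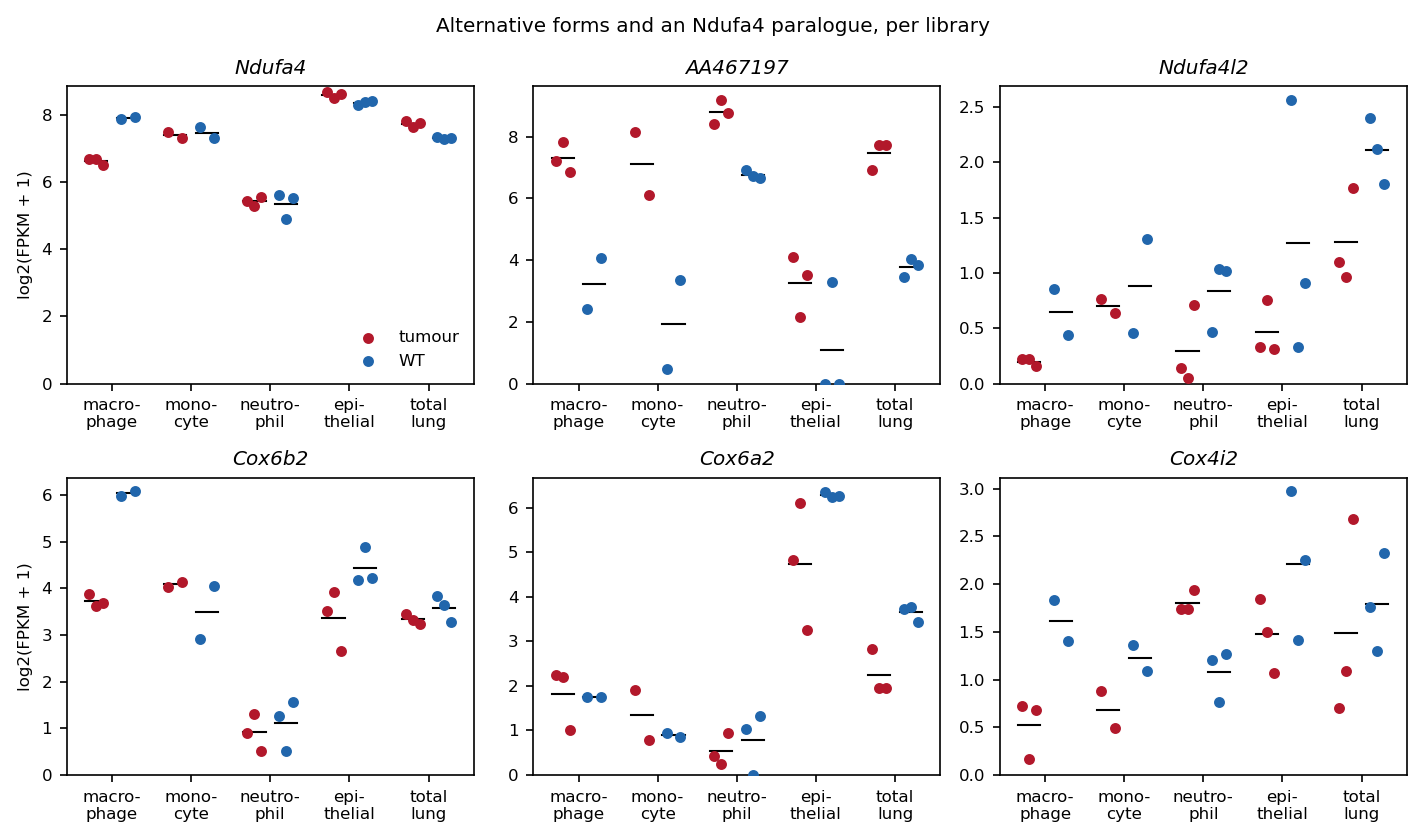
Log2(FPKM + 1) per library of Ndufa4, its relatives AA467197 and Ndufa4l2, and the tissue forms Cox6b2, Cox6a2 and Cox4i2 in the 5 preparations, tumour left of WT. Points are libraries. In macrophages Ndufa4 and Cox6b2 are lower and AA467197 is higher in every tumour library than in any WT library.

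Of the tissue forms of complex IV, Cox6a2 had its highest averages in epithelial cells. It read 27.3, 68 and 8.62 FPKM in tumour epithelial cells and 81.4, 74.8 and 76.1 FPKM in WT epithelial cells. The WT libraries were alike and the tumour libraries spread widely below them, and the log2 change of -1.56 ± 0.62 did not pass (limma adjusted p = 0.105). In WT macrophages Cox6a2 averaged 2.38 FPKM and in WT neutrophils 0.841 FPKM. Among WT preparations Cox6b2 was highest in macrophages, next in WT epithelial cells at 21.1 ± 6.36 FPKM (SD, n = 3), and 1.27 ± 0.785 FPKM in WT neutrophils. The widely expressed partners Cox6a1 and Cox6b1 stood far above them in every group. Cox6a1 averaged 315 ± 9.87 FPKM in WT epithelial cells (SD, n = 3).

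In epithelial cells, 7 of 83 tested members were higher in tumour libraries and 0 were lower, where 14.9% of 11823 genes tested were higher and 8.89% lower. The median log2 change was 0.18 for members and 0.01 for all genes. Atp5g1 read 95.5, 88.7 and 102 FPKM in tumour libraries, against 46.7, 47.2 and 45.6 FPKM in WT libraries, with no overlap (log2 change 1.02 ± 0.11 (SE), adjusted p = 0.00367, limma). Cox5b, Cox7c and Cox7b of complex IV rose by 0.72 ± 0.16, 0.63 ± 0.14 and 0.59 ± 0.15 on the log2 scale. Ndufa5 and Ndufv1, the NADH-oxidizing flavoprotein of complex I, rose by 0.55 ± 0.16 and 0.53 ± 0.14. Atp5o read 167, 155 and 164 FPKM in tumour libraries, against 115, 133 and 125 FPKM in WT libraries (log2 change 0.38 ± 0.11 (SE), adjusted p = 0.0465, limma). The count depended on single libraries. It was 1 without tumour library 9, tumour library 11 or WT library 8, 2 without WT library 10, 4 without WT library 9, and 14 with 3 lower without tumour library 10. When all 10 groups shared 1 estimate of the spread, 21 were higher and 6 lower. The all-gene shares above come from the fit of the epithelial groups alone and are not the background of that count. Endothelial markers summed to 26.6 to 103 FPKM in tumour and 255 to 449 FPKM in WT epithelial libraries. Relative depth was 1.25 to 1.58 in tumour and 0.831 to 0.962 in WT epithelial libraries. The part of these markers and of depth was not tested.

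In monocytes, 0 of 82 tested members were called higher and 0 lower, where 0.00% of 10366 genes were higher and 0.00% lower (lowest limma adjusted p 0.0911). At an unadjusted p under 0.05, 12 members were higher and 1 lower, and 744 and 815 of all genes. Members had a median log2 change of 0.22, against 0.00 for all genes, and 63 of 82 values were above 0. Atp5o read 147 and 125 FPKM in tumour libraries, against 117 and 93.3 FPKM in WT libraries, and the tumour libraries were above both WT libraries, with only 2 libraries a group. When all 10 groups shared 1 estimate of the spread, 12 members were higher and 1 lower in tumour monocytes. The 0.00% of all genes above comes from the fit of the monocyte groups alone and is not the background of that count. Endothelial markers summed to 110.2 to 290.5 FPKM in tumour and 638 to 989 FPKM in WT monocytes, and macrophage markers to 1442 to 2325 FPKM in tumour and 820.4 to 877 FPKM in WT monocytes. Their part was not tested.

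Other mitochondrial genes were counted by lists drawn up with earlier results of these data known. Over all genes tested, as given above, 33.3% were higher and 25.8% lower in tumour neutrophils, and 22.1% higher and 20.4% lower in total lung cells. Of 17 tested genes of the tricarboxylic acid cycle, which feeds NADH and succinate to complexes I and II, 9 were higher and 3 lower in tumour neutrophils (median log2 change 0.51). Idh2, mitochondrial isocitrate dehydrogenase, read 12.7, 8.79 and 13 FPKM in tumour libraries, against 2.51, 2.11 and 5.14 FPKM in WT libraries (log2 change 1.60 ± 0.25 (SE), adjusted p = 0.000854, limma). Citrate synthase (Cs) and malate dehydrogenase (Mdh2) rose by 0.79 ± 0.12 and 0.88 ± 0.14. In total lung cells 1 of 18 such genes was higher and 1 lower. Assembly factors outside the members were higher in tumour neutrophils for 9 of 20 tested and in total lung cells for 4 of 21, with 0 lower in both. A list of carriers, porins, electron-transfer flavoproteins, Ucp2 and Atpif1 gave 9 higher and 3 lower of 14 in tumour neutrophils, and 10 higher and 0 lower of 14 in total lung cells. Vdac3, an outer membrane porin, rose by 0.96 ± 0.14 in tumour neutrophils, whereas Slc25a5, an ADP/ATP carrier, fell by 0.32 on the log2 scale. The change of greatest size in this list was that of Slc25a3, the phosphate carrier, which read 169, 201 and 199.9 FPKM in tumour libraries, against 647, 718 and 569.7 FPKM in WT libraries (log2 change -1.76 ± 0.13 (SE), adjusted p = 2.4e-05, limma). The summed level of the list was 602 to 678 FPKM in tumour and 1003 to 1194 FPKM in WT neutrophils.

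Mitochondrial ribosomal proteins, which translate the mitochondrially encoded subunits, were higher in tumour neutrophils for 59 of 74 tested and lower for 1 (median log2 change 0.66). In total lung cells 41 of 75 were higher and 0 lower. In epithelial cells 17 of 75 were higher and 1 lower, beside 14.9% and 8.89% of all genes. In macrophages 2 of 75 were higher and 14 (18.7%) lower, beside 20.3% and 17.7% of all genes. Of 14 tested regulators of mitochondrial gene expression, 7 were higher and 1 lower in tumour neutrophils. Esrra, an estrogen-related nuclear receptor that drives respiratory genes, rose by 0.89 ± 0.12. Nrf1 and Tfam, the respiratory factor and the mitochondrial transcription factor, had log2 changes of 0.16 ± 0.11 and -0.08 ± 0.14 and did not pass, and Ppargc1a was too low to be tested. In total lung cells 2 regulators were higher and 3 lower, and Tfam was among the lower ones (log2 change -0.69 ± 0.12 (SE), adjusted p = 0.00398, limma).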

How the data were processed

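RNA of 27 libraries in 10 groups was measured by sequencing, and the FPKM values were used as deposited by the authors. Per the submitters' processing notes, CASAVA 1.8.2, TopHat2, Cufflinks and Cuffdiff were run with mm10 (GRCm38). Only FPKM were used, so depth could be read only as relative depth from the steps of low values. The members, the gene lists and the tests were chosen with earlier results of these data known. Members named with values were the 3 with the largest called change of each complex in each comparison (5 FPKM or more in the higher group), Atp5o, the tissue forms, the Sdh genes and Cyc1, and the 3 largest of each level or interaction contrast. AA467197, the motifs and the limit of 1000 bases were chosen after values were seen.

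Differences of log2(FPKM + 1) were tested with limma 3.58.1 (R 4.3.3, intensity trend) over genes at 1 FPKM or more in at least 2 libraries, with Benjamini-Hochberg adjustment over all of them and a threshold of 0.05. Each tumour against WT comparison used its own 2 groups, and level and interaction contrasts used 1 fit of 10 groups. The code was tested on simulated data. As no label names separate animals, p-values measure only the spread between these libraries, which may be technical. Python 3.11.15 with pandas 2.3.3, numpy 2.4.6 and matplotlib 3.10.9 did the rest. Gene positions and lengths came from GENCODE M21. Strand use in counting is not given in the sources used here, and 24 of 84 members overlap exons of another gene, so reads there may be shared. Alternatives were pseudocounts of 0.1 and 5, no filter, quantile normalization, upper-quartile scaling, genes listed at 0 left out, 1 fit of 10 groups or of only the compared groups, a replicate block and leaving out each library. Shared replicate numbers are running numbers of the titles and do not pair samples. Values of 1 complex I gene are not reported here, although it is included in the counts.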

Additional observations from a re-analysis of the deposited data

Results flagged for a closer look

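The tumour change of members differed between neutrophils and other preparations by the test of the difference itself, the interaction term in limma. Against macrophages, 54 members had a larger and 3 a smaller change in neutrophils, and the largest differences were 2.10 for Cox6b2, 2.02 for Ndufaf1 and 1.90 for Atp5g1 on the log2 scale. For Cox6b2 and Ndufaf1, both lower in tumour macrophages, the difference includes that fall. Against monocytes, 31 had a larger and 1 a smaller change, led by 1.30 for Ndufc1, 1.20 for Ndufaf2 and 1.12 for Uqcrc1. Against epithelial cells, 43 had a larger and 2 a smaller change, led by 1.66 for Ndufc1, 1.48 for Ndufaf3 and 1.47 for Cox4i2. For Ndufaf3 and Cox4i2, whose averages were lower in tumour than in WT epithelial cells without passing there, the difference includes that fall. Cox4i2 was low in neutrophils, at 2.35, 2.34 and 2.82 FPKM in tumour and 1.31, 0.694 and 1.41 FPKM in WT libraries. The 3 tests share the neutrophil libraries.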

How the results depend on the processing

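The 57 higher and 3 lower members of neutrophils became 53 to 63 and 2 to 3 under the settings other than the replicate block and leaving out a library, and 53 to 59 and 3 to 4 with 1 library left out. In macrophages, 2 higher and 5 lower became 2 and 15 under quantile normalization and 2 and 10 under upper-quartile scaling, and 1 to 6 and 2 to 13 with 1 library left out. With 1 fit of all 10 groups, monocytes had 12 higher and 1 lower in place of 0 and 0, and epithelial cells 21 and 6 in place of 7 and 0. Quantile normalization gave 1 lower in epithelial cells, 33 higher and 5 lower in total lung cells, and 1 higher for WT neutrophils against monocytes. With 1 library left out, epithelial cells had 1 to 14 higher and 0 to 3 lower, and total lung cells 44 to 58 higher and 1 to 2 lower; the lower count of 1 came without tumour library 13 or WT library 11. Upper-quartile scaling gave 4, 10 and 8 members higher in WT neutrophils than in macrophages, monocytes and epithelial cells, and 46 lower than in monocytes. For the interaction with monocytes, the count of smaller changes, 1, became 0 under quantile normalization and 2 under upper-quartile scaling, and leaving out 1 library gave 19 to 30 larger and 0 to 2 smaller. For that with epithelial cells the smaller ones became 1 under quantile normalization and 1 to 4 with 1 library left out. The cause was not tested for any of these. All-gene shares given with the results are those of the main tests and are no background for counts under an alternative. Of the calls, 42 of 60 in neutrophils, 19 of 59 in total lung cells, 2 of 7 in macrophages and 0 of 7 in epithelial cells were kept under every alternative run, as were 61 of 77, 45 of 76 and 55 of 80 of the level contrasts and 33 of 57, 15 of 32 and 17 of 45 of the interactions with macrophages, monocytes and epithelial cells. The replicate block, which left no call in epithelial cells, is among these alternatives where it was run. Without the block and without leaving out a library, 7 settings remained. They kept 54 of 60, 31 of 59, 6 of 7 and 6 of 7 tumour against WT calls, in the order above. Of the interaction calls they kept 42 of 57, 15 of 32 and 29 of 45, and the counts of the level contrasts were the same.

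Replicate numbers were tried as a replicate block, although they do not pair samples: each pair of groups shared at most 2 numbers, and deviations of same-numbered libraries correlated at -0.158 to 0.0743. The block gave 5 higher and 12 lower in macrophages, 41 and 3 in neutrophils, 0 and 0 in epithelial cells and 21 and 2 in total lung cells, and 35 and 19 larger changes for the interactions with macrophages and epithelial cells. No paired analysis was possible because fewer than 2 numbers were shared for monocytes, their interaction and the level contrasts.

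Of 1986 values of single named genes under alternatives, 1801 kept direction and side of the threshold, 110 lost the call, 31 gained one and 44 changed sign. The log2 changes that changed sign were, under quantile normalization, in macrophages Cox4i1 -0.29, Cox8a -0.019, Atp5g2 -0.14, Sdhc -0.086 and Cyc1 -0.015, monocytes Ndufa3 -0.0098, neutrophils Cox4i1 0.30 and Cox7a1 0.018 and total lung cells Atp5g2 -0.13. Of these, Cox4i1 passed in both (limma adjusted p 0.0437 and 0.0158). Under upper-quartile scaling they were in macrophages Cox4i1 -0.0066, Atp5g2 -0.046 and Sdhc -0.056, monocytes Sdhd 0.0041 and neutrophils Ndufa4 -0.063, and under the replicate block in macrophages Cox7a2 0.0063 and Sdhc -0.021 and neutrophils Cox6b2 0.073. With 1 library left out the ranges that crossed 0 were in macrophages Atp5g2 -0.027 to 0.080, Cox4i1 -0.019 to 0.15, Cox6a2 -0.15 to 0.47, Cox6b1 -0.10 to 0.016, Cox7a2 -0.088 to 0.036 and Sdhc -0.054 to 0.087; in monocytes Cox7a1 -0.60 to 0.81, Cyc1 -0.073 to 0.40, Ndufa3 -0.011 to 0.35, Ndufa4 -0.23 to 0.082, Sdha -0.088 to 0.059, Sdhb -0.025 to 0.33 and Sdhd -0.13 to 0.12; in neutrophils Cox6b2 -0.50 to 0.031, Cox7a1 -0.16 to 0.16 and Ndufa4 -0.15 to 0.21; in epithelial cells Cox7a1 -0.26 to 0.10 and Sdha -0.071 to 0.13; in total lung cells Cox4i2 -0.89 to 0.092.

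The number of libraries limits every comparison, most of all that of monocytes. Levels are relative to all fragments of a library, and counting error cannot be given from FPKM.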
